A study of Mus musculus with 6 samples.

Results

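Fibrillar collagens and the proteins that coat and fill the space between collagen fibrils were examined in RNA-seq libraries of WT mouse microglia at 2 ages. The 10 genes were taken by symbol from a list, among the 38924 genes of the count tables (16157 of which passed the low-count filter, these 10 included), and each symbol matched 1 Ensembl identifier. They are the collagen genes Col1a1, Col1a2 and Col3a1, the fibronectin gene Fn1, the small leucine-rich proteoglycan genes Dcn, Lum, Bgn and Prelp, the matrix Gla protein gene Mgp and the insulin-like growth factor binding protein gene Igfbp2. The libraries came from female C57BL/6 WT mice, with 3 biological replicates at 5 weeks and 3 at 24 weeks, which served as controls in the study. The Het libraries were not analysed here. The meninges were taken off by hand, the brain was dissociated, and cells carrying CD11b, an integrin chain found on microglia and other myeloid cells, were pulled out with magnetic beads. No Cre or transgene is described for the WT mice.

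The interstitial matrix is the meshwork of fibres and glycoproteins that fills connective tissue. Type I collagen is built from the chains encoded by Col1a1 and Col1a2, type III collagen from the chain encoded by Col3a1, and both assemble into fibrils whose width and spacing are set in part by small leucine-rich proteoglycans that bind their surface. Fibronectin forms a separate fibrous network and binds integrins on cells. The healthy brain parenchyma holds little of this material, which lies mainly in the meninges, around larger vessels and in the stroma of the choroid plexus, where fibroblasts make most of it. Mural and endothelial cells of vessels express some of the same genes.

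The pairs counted on genes numbered 23198065 to 46434788 per library at 5 weeks and 10410625 to 13554336 at 24 weeks, and each age had a sequencing lane to itself, so that lane and age cannot be told apart. The 14 homeostatic microglia markers, which check the labelled cell type, were all detected, and their summed level was 31542 to 35999 CPM (reads scaled by library size and TMM factors) at 5 weeks and 26546 to 29037 at 24 weeks. The libraries also held RNA of other brain cells, with summed levels of 7891 to 12292 CPM for 14 markers of choroid plexus epithelium, 494 to 981 for 15 endothelial markers and 154 to 344 for 12 mural cell markers. The sum for 27 meningeal fibroblast markers other than the 10 genes ran from 123 to 164 CPM. The library labelled 24-week replicate 3 stood apart in Xist, the RNA of the inactive X chromosome, with 78 counts against 31677 to 59021 in the other 5, while 4 Y-linked genes had 0 counts in all 6 (a count of 0 allows up to 3). The count of the 10 genes that passed, the values of those that passed and the list counts it moved by over 1.5 times are therefore also given without it.

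Between 5 and 24 weeks, 3 of the 10 genes rose (Fn1, Prelp and Bgn), 1 fell (Col3a1) and 6 did not pass the test, where 28.8% of all 16157 genes tested passed, 15.5% as higher and 13.3% as lower. The test was edgeR's quasi-likelihood test, with p-values adjusted over all genes by Benjamini-Hochberg and a threshold of 0.05. Log2 fold changes are positive where the 24-week level was higher. The median log2 fold change of the 10 was -0.10, against 0.00 over all genes tested. Without 24-week replicate 3 there were again 3 higher and 1 lower. Fn1 rose 3.76-fold, Prelp 3.73-fold and Bgn 2.05-fold, and Col3a1 fell 3.16-fold. In 5 of the 10 the ages did not overlap, against 45.1% of all genes tested. In 3 every 24-week library was above every 5-week one (23.0% of all genes) and in 2, Col3a1 and Lum, below (22.1%). In bulk RNA, fewer cells of a type and less RNA per cell cannot be told apart.

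**Figure D1:**
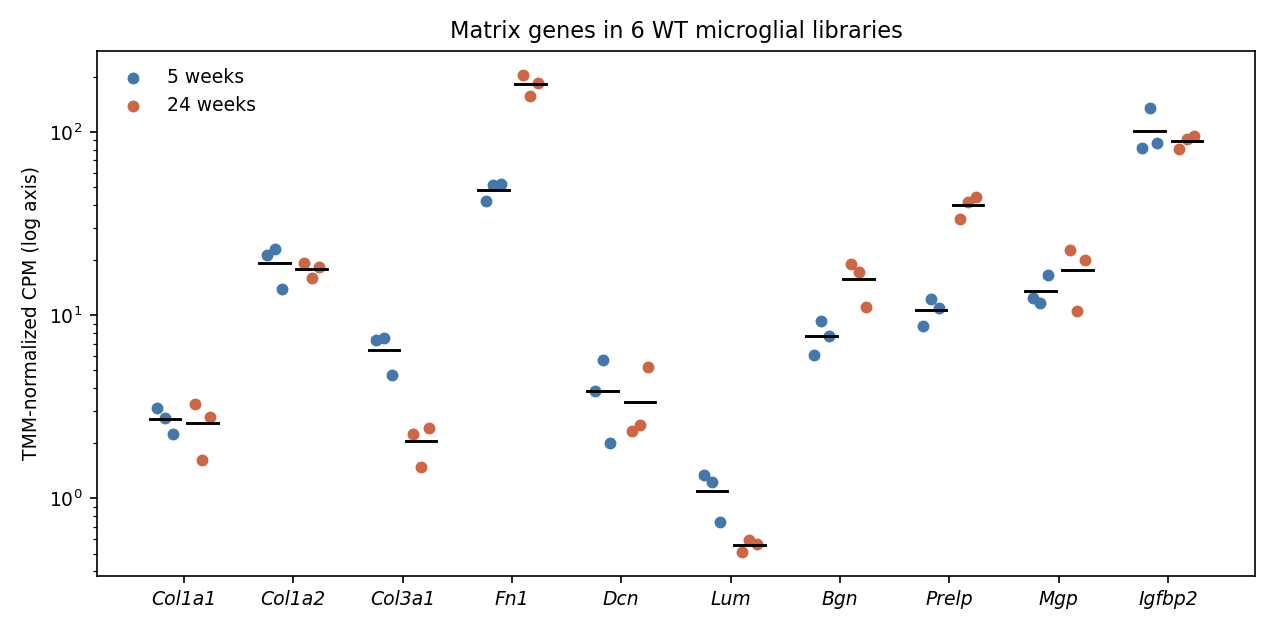
TMM-normalized CPM (log axis) of the 10 matrix genes in each WT library, with 3 libraries per age (blue at 5 weeks, orange at 24 weeks) and black bars for the mean. Fn1, Bgn and Prelp lie higher in every 24-week library than in any 5-week library, Col3a1 and Lum lie lower, and the ages overlap in the other 5 genes.

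**Figure D2:**
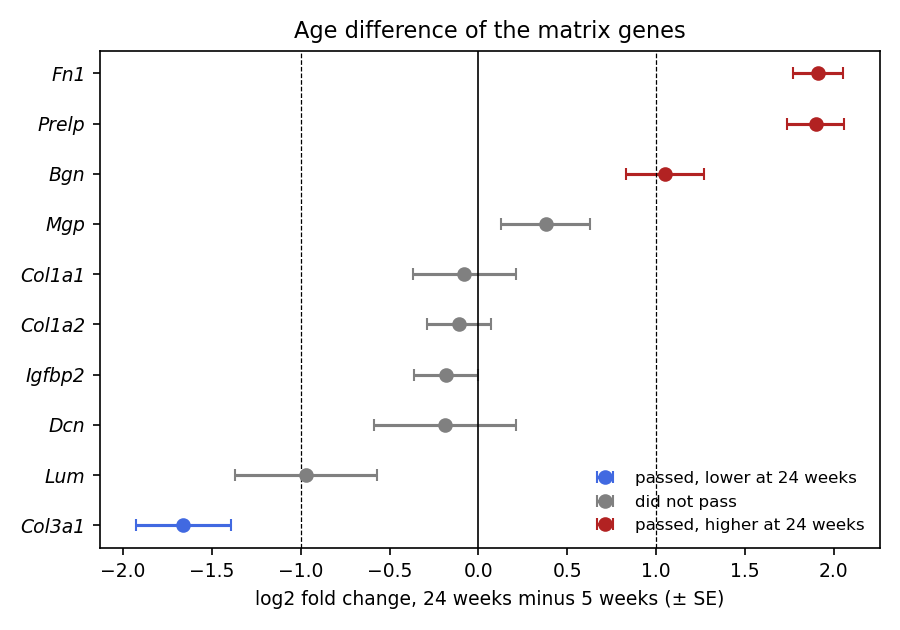
Change of each matrix gene from 5 to 24 weeks (log2 fold) with its SE from edgeR's fit of 3 libraries per age, sorted, with dashed lines at 2-fold. The values run from -1.66 for Col3a1 to 1.91 for Fn1; red and blue points passed as higher or lower and grey points did not pass.

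Col3a1 encodes the chain of type III collagen, a thin-fibril collagen of vessel walls and soft connective tissue (ENSMUSG00000026043, chromosome 1 of GRCm38 from 45311538 to 45349706, plus strand). It had 234, 171 and 203 counts in replicates 1, 2 and 3 at 5 weeks, and 31, 20 and 26 at 24 weeks. Scaled for depth, these are 7.31, 7.49 and 4.69 CPM at 5 weeks and 2.26, 1.48 and 2.43 at 24 weeks. The lowest 5-week library thus lay above the highest 24-week one. Its mean fell from 6.5 ± 1.57 to 2.06 ± 0.508 CPM (SD, n = 3 per age), 3.16-fold, which edgeR fitted as -1.66 on the log2 scale with an SE of 0.27 (adjusted p = 0.00135). Without 24-week replicate 3 it was -1.79 (SE 0.32, adjusted p = 0.0037), and it passed whichever library was left out.

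The 250 bases before the RefSeq start of Col3a1 are shown because this is the gene of the set that fell, beside those of Bgn and Prelp, which rose. They come from RefSeq's annotation of GRCm38.p6. Capitals mark matches on either strand to TATAAA (the TATA box core), CCAAT (the CCAAT box) and GGGCGG (the GC box). In the Bgn window all matches to GGGCGG are on the reverse strand and the last pair overlap, and 13 bases of the Prelp window lie in an annotated exon.
Col3a1, chr1:45311288-45311537, plus strand: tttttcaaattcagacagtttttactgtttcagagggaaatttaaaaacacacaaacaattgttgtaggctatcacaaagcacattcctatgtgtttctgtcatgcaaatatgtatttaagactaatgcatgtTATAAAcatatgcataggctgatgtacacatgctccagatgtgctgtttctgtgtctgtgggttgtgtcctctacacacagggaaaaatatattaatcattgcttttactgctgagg
Bgn, chrX:73483351-73483600, plus strand: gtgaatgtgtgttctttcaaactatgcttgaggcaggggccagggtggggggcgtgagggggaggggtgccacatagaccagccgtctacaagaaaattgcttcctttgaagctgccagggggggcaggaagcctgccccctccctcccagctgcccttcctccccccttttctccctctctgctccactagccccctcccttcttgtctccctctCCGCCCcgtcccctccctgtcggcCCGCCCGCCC
Prelp, chr1:133921402-133921651, minus strand: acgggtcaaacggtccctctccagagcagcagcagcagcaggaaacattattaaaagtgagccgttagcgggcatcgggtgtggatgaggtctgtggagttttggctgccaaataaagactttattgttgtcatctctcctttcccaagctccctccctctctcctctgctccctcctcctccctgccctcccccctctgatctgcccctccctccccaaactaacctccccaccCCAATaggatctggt
The promoter of Fn1, which also rose, is not shown. Pyrimidines (C or T) made up 61.2% of the Bgn window, 61.2% of the Prelp window and 51.6% of the Col3a1 window, where the median of 32851 promoters is 50%. G and C made up 35.2% of the Col3a1 window, 64.4% of the Bgn window and 55.6% of the Prelp window, against a median of 52.4%. Col3a1 held 1 match to TATAAA, 117 bases before the start, a motif that 12.4% of all windows hold. Bgn held 3 to GGGCGG (32.7% of windows) and Prelp 1 to CCAAT (33.8%), 15 bases before the start. Such matches were not confined to genes that rose. The window of Col1a2, which did not pass, held 2 matches to GGGCGG and 1 to CCAAT, with 62.0% G and C. Igfbp2, which did not pass either, had a window with 3 matches to GGGCGG (67.2% G and C). Another Igfbp2 window (56.4%) held no match to any of the motifs. A match describes these letters and does not show that a factor binds them.

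Col1a2, the gene for the second chain of type I collagen (chromosome 6 from 4504814 to 4541544), did not pass the test. It had 21.3, 22.9 and 13.9 CPM at 5 weeks (replicates 1 to 3) and at 24 weeks 19.3, 15.9 and 18.3, so the ages overlapped, and the fitted log2 fold change was -0.11 (SE 0.18, adjusted p = 0.676). Its 95% interval ran from -0.48 to 0.25. Col1a1, which encodes the other chain of type I collagen (chromosome 11 from 94936224 to 94953042), had 100, 63 and 98 counts at 5 weeks and 45, 22 and 30 at 24 weeks. Its levels were 3.13, 2.76 and 2.26 CPM at 5 weeks and 3.28, 1.63 and 2.80 at 24 weeks, which also overlapped, and the fitted log2 change was -0.08 (SE 0.29, adjusted p = 0.865, interval -0.65 to 0.49).

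Ratios within a library do not depend on how the library was scaled. The counts per kilobase of exon on Col1a1 were 0.278, 0.229 and 0.308 times those on Col1a2 at 5 weeks (replicates 1 to 3), and 0.323, 0.194 and 0.290 times at 24 weeks. The ratio thus lay well under 1 in every library and its ranges at the 2 ages overlapped (log2 difference -0.04, exact permutation test, two-sided, p = 0.9). For Col3a1 over Col1a2 the ratios were 0.434, 0.415 and 0.427 at 5 weeks and 0.149, 0.118 and 0.168 at 24 weeks. The 5-week mean was 0.425 ± 0.00992 and the 24-week mean 0.145 ± 0.0253 (SD, n = 3), a log2 difference of -1.57. This ratio, taken up after counts had been seen, gave p = 0.1 in the exact permutation test (two-sided), the smallest that 3 libraries against 3 allow, and 0.25 when adjusted over the 5 ratios computed. The size of both ratios depends on the exon length used. With the longest transcript the 5-week mean was 0.129 rather than 0.271 for Col1a1 over Col1a2, and 0.323 for Col3a1 over Col1a2. The log2 differences between the ages stayed at -0.04 and -1.57.

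**Figure D3:**
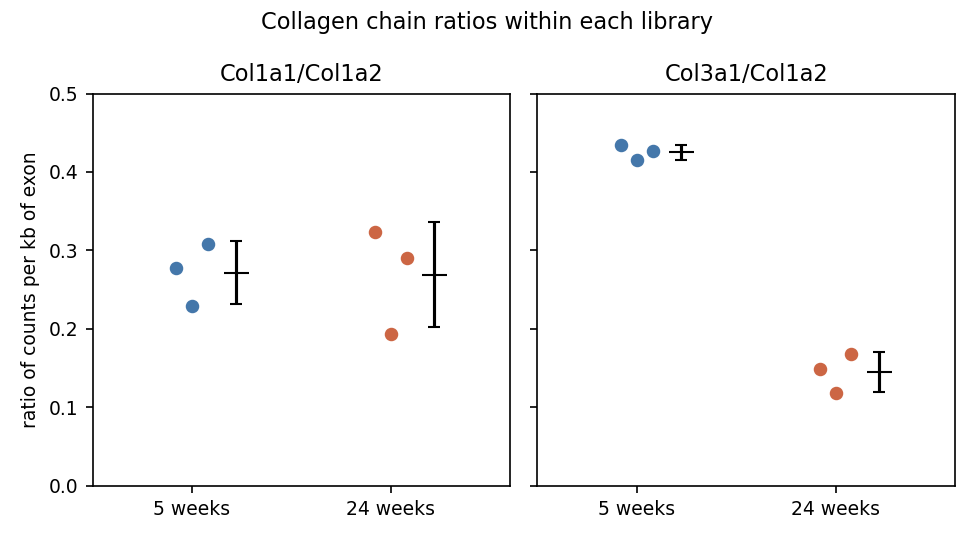
Ratio of counts per kilobase of merged exon for Col1a1 over Col1a2 (left) and Col3a1 over Col1a2 (right) in each WT library, with mean ± SD (n = 3 per age) beside the points. The left-hand ratio lies between 0.194 and 0.323 at both ages, while the right-hand one is 0.415 to 0.434 at 5 weeks and 0.118 to 0.168 at 24 weeks.

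Fn1, which encodes fibronectin (ENSMUSG00000026193, chromosome 1 from 71585520 to 71653200, minus strand), rose about as much as Prelp. It had 41.9, 51.7 and 52.1 CPM in 5-week replicates 1 to 3, against 206, 157 and 186 at 24 weeks, well apart. The mean rose 3.76-fold, from 48.6 ± 5.76 to 183 ± 24.5 CPM (SD, n = 3), or 1.91 on the log2 scale with an SE of 0.14 (edgeR adjusted p = 8.59e-06). Without 24-week replicate 3 the value was 1.89 (SE 0.16, adjusted p = 5.5e-05). After removal of length and GC trends it was 1.62 (adjusted p = 5.73e-06), where Prelp stood at 1.86. Before scaling, the shallower 24-week libraries held 2818, 2122 and 1988 Fn1 counts and the 5-week libraries 1342, 1182 and 2255. The antisense gene Apol7d, which shares exon bases with Fn1 on the other strand, held at most 4 counts in a library.

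Among the small leucine-rich proteoglycans, Prelp and Bgn rose while Dcn and Lum did not pass. Prelp encodes a proline- and arginine-rich member that anchors basement membranes to the underlying matrix (ENSMUSG00000041577, chromosome 1 from 133910304 to 133921414, minus strand). It had 8.78, 12.3 and 10.9 CPM at 5 weeks (replicates 1 to 3) and at 24 weeks 33.4, 41.5 and 44.4. Every 24-week library lay far above the 5-week ones, and the mean rose 3.73-fold, from 10.7 ± 1.77 to 39.7 ± 5.72 CPM (SD, n = 3). The fit gave 1.90 on the log2 scale (SE 0.16, edgeR adjusted p = 2.56e-05). Without 24-week replicate 3 it was 1.81 (SE 0.18, adjusted p = 0.000153). Bgn encodes biglycan, which binds collagen and signals through Toll-like receptors of macrophages when released (ENSMUSG00000031375, chromosome X from 73483602 to 73495933, plus strand). It had 6.10, 9.28 and 7.67 CPM at 5 weeks and 19.0, 17.2 and 11.1 at 24 weeks. The ages did not overlap, although 24-week replicate 3 lay close to the highest 5-week library, and the mean rose 2.05-fold, from 7.68 ± 1.59 to 15.8 ± 4.14 CPM (SD, n = 3). The fit gave 1.05 on the log2 scale (SE 0.22, edgeR adjusted p = 0.00511). Without that replicate the value was 1.24 (SE 0.20, adjusted p = 0.00224).

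Dcn, the gene for decorin, a close relative of biglycan (chromosome 10 from 97479609 to 97518143), varied widely between libraries of 1 age. It had 3.84, 5.69 and 2.01 CPM in 5-week replicates 1 to 3, against 2.34, 2.51 and 5.23 at 24 weeks. The highest library was 2.83 times the lowest at 5 weeks and 2.24 times at 24 weeks, where replicate 3 was the high one. Its log2 fold change was -0.19 (SE 0.40, adjusted p = 0.75, interval -0.98 to 0.60), and -0.64 (adjusted p = 0.293) without 24-week replicate 3. It was 0.18 (adjusted p = 0.768) without 5-week replicate 2. Lum encodes lumican, a proteoglycan of thin collagen fibrils, and lies beside Dcn on the same strand (chromosome 10 from 97565128 to 97572703). It had 43, 28 and 32 counts at 5 weeks and 7, 8 and 6 at 24 weeks, which are 1.34, 1.23 and 0.739 CPM and 0.511, 0.591 and 0.561 CPM. All 24-week libraries lay below all 5-week ones, yet the gene did not pass (log2 fold change -0.97, SE 0.40, adjusted p = 0.0894). It did pass without 5-week replicate 3 (-1.20, adjusted p = 0.0291). Lum reached the low-count limit of 0.544 CPM in 3 libraries at 5 weeks and 2 at 24 weeks, where the other 9 genes reached it in all 6 libraries.

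Mgp encodes matrix Gla protein, a small secreted inhibitor of calcification in vessel walls and cartilage (ENSMUSG00000030218, chromosome 6 from 136872435 to 136875823, minus strand). It had 12.4, 11.7 and 16.5 CPM at 5 weeks (replicates 1 to 3) and at 24 weeks 22.6, 10.5 and 20. Replicate 2 was the lowest library at both ages, and at 24 weeks it lay under all 5-week libraries while the other two lay above them. The log2 change of 0.38 (SE 0.25, adjusted p = 0.274) did not pass with all libraries but did without 24-week replicate 2 (0.64, adjusted p = 0.041).

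Igfbp2 encodes a secreted protein that binds insulin-like growth factors and is made in the brain by choroid plexus, meninges and some glia (ENSMUSG00000039323, chromosome 1 from 72824503 to 72852474, plus strand). It had 81.6, 136 and 87.0 CPM in 5-week replicates 1 to 3, against 80.5, 92.1 and 95.7 at 24 weeks. The ages overlapped, with 5-week replicate 2 above all others, and the log2 fold change was -0.18 (SE 0.18, adjusted p = 0.47, interval -0.53 to 0.16). The summed level of the 14 choroid plexus markers was highest in the same library, at 12292 CPM, against 8174 and 7891 in the other two at 5 weeks and 8400, 9845 and 10384 at 24 weeks. The libraries stood in the same order in both measures at 24 weeks but not at 5 weeks, where replicate 3 was above replicate 1 in Igfbp2 and below it in the marker sum. Ttr (7408 CPM) and Enpp2 (3988) made up most of the sum in 5-week replicate 2, and the markers did not all peak there. Folr1 did, at 55.8 CPM, while Prlr (144 CPM) and Kl (229) were lower there than in any 24-week library (198 to 244 and 280 to 330). The part of choroid plexus RNA in the Igfbp2 level was not tested.

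Per kilobase of merged exon, Igfbp2 was the highest of the 10 at both ages, with 55 ± 16.3 RPKM (CPM divided by exon length in kilobases) at 5 weeks and 48.4 ± 4.30 at 24 weeks (SD, n = 3). At 5 weeks Mgp (11.4 ± 2.17 RPKM), Fn1 (4.16 ± 0.493) and Prelp (2.95 ± 0.490) followed, each range separate from the next. Col1a2 (1.56 ± 0.385) and Bgn (1.26 ± 0.261) overlapped each other, and so did each neighbour in the run of Col3a1 (0.662 ± 0.160), Dcn (0.659 ± 0.315), Lum (0.451 ± 0.131) and Col1a1 (0.414 ± 0.0659). At 24 weeks Fn1 (15.6 ± 2.10 RPKM), Mgp (14.9 ± 5.37) and Prelp (11 ± 1.58) formed a group in which neighbours overlapped. Bgn (2.59 ± 0.679) came next, then Col1a2 (1.43 ± 0.140), Dcn (0.576 ± 0.278), Col1a1 (0.392 ± 0.130) and Lum (0.226 ± 0.0166). Col3a1, at 0.210 ± 0.0517 RPKM, overlapped Lum. Some ranks depend on the length used: with the longest transcript Col1a2 stood above Prelp and Col1a1 above Lum at 5 weeks, and Mgp above Fn1 and Col3a1 above Lum at 24 weeks.

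Fn1 and Igfbp2 held most of the reads of the set. As a mean share per library of the counts on the 10 genes, Igfbp2 took 46.5% at 5 weeks and 24.2% at 24 weeks, and Fn1 took 22.8% and 49.0%. The sum was 188, 261 and 198 CPM at 5 weeks (replicates 1 to 3) and at 24 weeks 389, 340 and 386, and without Fn1 it was 146, 209 and 146 against 183, 183 and 201. Without Fn1 the ages overlapped, while without both Fn1 and Igfbp2 they did not, at 64.2, 73.3 and 58.7 CPM against 103, 91.2 and 105. The 3 collagen genes summed to 31.8, 33.1 and 20.9 CPM at 5 weeks and 24.8, 19.0 and 23.5 at 24 weeks, which overlapped as well. The coefficient of variation between libraries of 1 age ran from 11.9% (Fn1) to 47.8% (Dcn) at 5 weeks and from 7.33% (Lum) to 48.3% (Dcn) at 24 weeks, where the medians over all genes tested were 14.4% and 10.4%.

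Each list count from here on stands against the shares over all genes tested, of which 15.5% rose and 13.3% fell. Of 6 other fibrillar collagen genes tested, 0 rose and 0 fell by edgeR, DESeq2 or limma-voom, with 1 at an unadjusted p under 0.05 in edgeR. With length and GC trends removed, 2 passed as lower. With total counts only, with a replicate block, or without 5-week replicate 2 or 3, 1 passed as higher. Col5a3, a minor chain of type V collagen, was the 1 nearest to the threshold (0.804 ± 0.282 to 1.62 ± 0.418 CPM, log2 fold change 1.02, SE 0.37, adjusted p = 0.0578). Col5a2, which lies beside Col3a1 and encodes a chain that joins type I fibrils, had 6.17 ± 0.722 and 5.24 ± 0.702 CPM (adjusted p = 0.394). Of 12 tested genes for collagens of types VI to XVIII, 3 rose and 0 fell. They were Col6a3, of the beaded filaments of type VI (43.6 ± 8.19 to 83.3 ± 22.5 CPM, log2 fold change 0.93, adjusted p = 0.00422), Col18a1, of vascular basement membranes (0.63, adjusted p = 0.0157), and Col14a1, which coats fibrils (0.73, adjusted p = 0.028). With length and GC trends removed 1 rose and 1 fell, without 5-week replicate 1 only 1 rose, and without 24-week replicate 1, 2 or 3 only 2 did. The other listed genes for type VI chains, Col6a1 (-0.28, adjusted p = 0.535) and Col6a2 (0.50, adjusted p = 0.279), did not pass.

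Of 24 genes for collagen synthesis and cross-linking, 2 rose, 5 fell and 17 did not pass, where 15.5% of all genes tested rose and 13.3% fell. The median log2 fold change of the list was -0.03. Those that fell included Ppib, a prolyl isomerase of the endoplasmic reticulum (151 ± 5.21 to 93.9 ± 5.02 CPM, -0.68, adjusted p = 0.000672), P4hb, a subunit of prolyl 4-hydroxylase that also folds other proteins (-0.39, adjusted p = 0.0213), and Sparc, a collagen-binding protein that microglia express (2421 ± 95.5 to 1738 ± 169 CPM, -0.48, adjusted p = 0.0188). Lox, the lysyl oxidase that cross-links collagen and elastin outside the cell, rose from 1.49 ± 0.263 to 3.25 ± 0.595 CPM (1.13, adjusted p = 0.00972). The balance of this list depended on the scaling and on single libraries, with 4 higher and 3 lower by total counts only, 1 and 1 without 24-week replicate 2, 1 and 2 without 5-week replicate 1, 1 and 3 without 24-week replicate 1, and 3 and 3 without 5-week replicate 3 or 24-week replicate 3. Of the other small leucine-rich proteoglycans 6 of 12 were tested, of which Podn alone rose (0.672 ± 0.241 to 1.67 ± 0.166 CPM, 1.36, adjusted p = 0.0153), and the median was 0.66. The number that rose was 3 with total counts only or with length and GC trends removed. It was 2 with no low-count filter, with a replicate block, or without 5-week replicate 2 or 3. It was 0 with at least 50 counts in every library, or without 5-week replicate 1, 24-week replicate 1 or 24-week replicate 2. Without 5-week replicate 3, 1 gene of this list fell.

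Among elastic fibre and matricellular genes 5 rose, 3 fell and 10 did not pass, of 18 tested. Ltbp4, a protein of elastic fibres that binds latent TGF-beta, rose (15.8 ± 3.31 to 89.2 ± 12.9 CPM, log2 fold change 2.49, SE 0.17, adjusted p = 5.46e-06). Vtn, the vitronectin gene, rose (0.84, adjusted p = 0.00182), as did Fbln2 (0.82, adjusted p = 0.00538), while Postn, which encodes periostin, fell from 20.6 ± 1.27 to 10.7 ± 1.78 CPM (-0.93, adjusted p = 0.00116). With length and GC trends removed 4 rose and 4 fell, and the number that fell was 1 without 5-week replicate 1 or any of the 24-week replicates and 2 without 5-week replicate 2. Of 16 collagen and fibronectin receptor genes, 7 rose and 1 fell, with a median of 0.45. With length and GC trends removed the balance turned to 3 higher and 4 lower. The number that rose was 3 without 5-week replicate 1 or 24-week replicate 2, and the number that fell was 2 without 5-week replicate 3. Itga5, whose product pairs with the beta 1 integrin to form the main fibronectin receptor, rose from 22.9 ± 5.91 to 42.6 ± 1.80 CPM (0.89, adjusted p = 0.00284), Itga1, of a collagen receptor, from 10.3 ± 1.28 to 28.7 ± 2.03 CPM (1.49, adjusted p = 4.59e-05), and Sdc4, a co-receptor for fibronectin, fell (-0.81, adjusted p = 0.00128). Of 16 matrix-degrading enzymes and inhibitors 4 rose and 1 fell, against 2 and 1 without 24-week replicate 2 and 3 and 2 without 24-week replicate 3. The inhibitor Timp3 rose (83.6 ± 14.6 to 137 ± 11.6 CPM, 0.71, adjusted p = 0.00325), as did Mmp2, a protease of collagens and gelatin (0.51, adjusted p = 0.0113), and Timp4 fell (-1.34, adjusted p = 0.00815).

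Around Igfbp2, 4 of 10 tested genes of the insulin-like growth factor system rose and 2 fell, against 1 and 1 without 5-week replicate 1 and 2 and 1 without 24-week replicate 1. Only 1 fell without 5-week replicate 2, 24-week replicate 2 or 24-week replicate 3. Igf2, a growth factor made in meninges and choroid plexus, rose from 85.2 ± 23.6 to 197 ± 10.6 CPM (log2 fold change 1.21, SE 0.17, adjusted p = 0.000624), and the binding protein gene Igfbp4 fell from 58.6 ± 1.78 to 36.2 ± 7.92 CPM (-0.69, adjusted p = 0.00537). Igfbp7, a binding protein of vessels, rose (0.51, adjusted p = 0.0118), as did the receptor gene Igf1r (0.63, adjusted p = 0.016).

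**Figure D4:**
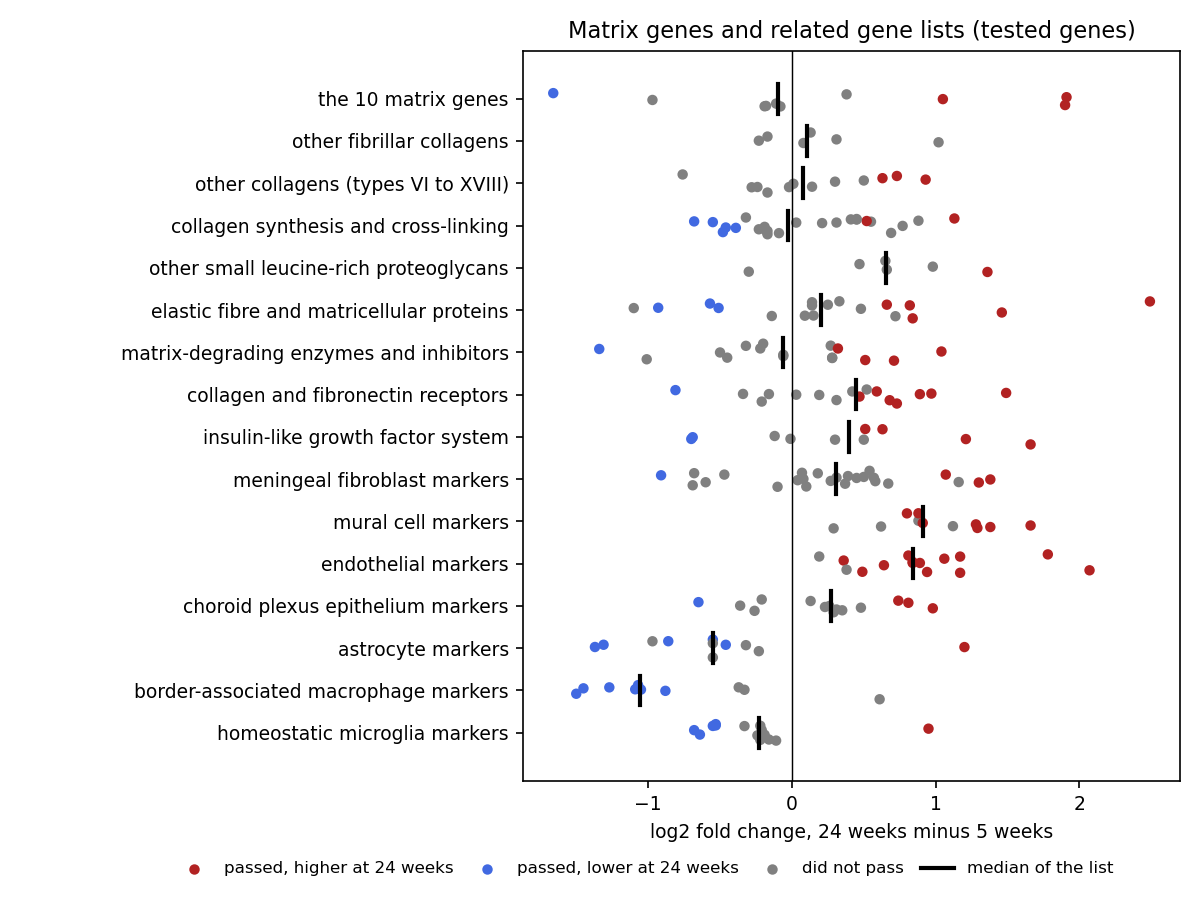
Change from 5 to 24 weeks (log2 fold) of every tested gene in the 10-gene set and in 15 related lists; each point is 1 gene, black bars are list medians, and colours mark genes that passed as higher (red), as lower (blue) or did not pass (grey). Endothelial and mural markers all lie on the higher side (medians 0.84 and 0.91), all but 1 of the macrophage markers of the brain borders on the lower side (median -1.06), and the 10 matrix genes spread from -1.66 to 1.91.

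Of 25 tested meningeal fibroblast markers outside the set, 3 rose, 1 fell and 21 did not pass, where 15.5% of all genes tested rose and 13.3% fell. The median log2 fold change of the list was 0.31. The balance turned to 3 higher and 4 lower with length and GC trends removed and to 2 and 4 without 5-week replicate 3, and it was 2 and 2 without 24-week replicate 2 and 2 and 1 without 5-week replicate 1 or 24-week replicate 1. Their summed level was 123 to 146 CPM at 5 weeks and 153 to 164 at 24 weeks. Foxc1, a transcription factor of meningeal and mural precursors, rose from 4.05 ± 1.25 to 10.4 ± 0.373 CPM (adjusted p = 0.00148), and Slc22a8, an organic anion transporter also found in choroid plexus and vessels, rose as well (1.07, adjusted p = 0.000717). Gjb6, a connexin gene shared with astrocytes, fell (-0.91, adjusted p = 0.00432). The transcription factor gene Tbx15 rose from 0.65 ± 0.333 to 1.53 ± 0.181 CPM (adjusted p = 0.041).

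Over all genes tested 15.5% rose and 13.3% fell, the shares against which the counts of the cell type lists stand. Of 11 tested mural cell markers 7 rose and 0 fell, and their summed level went from 154 to 185 CPM at 5 weeks to 300 to 344 at 24 weeks. Notch3 (11.4 ± 1.29 to 35.9 ± 3.64 CPM, log2 fold change 1.66, adjusted p = 2.2e-05) and Pdgfrb (9.64 ± 1.77 to 25.1 ± 3.70 CPM, 1.38, adjusted p = 0.000245), receptors of pericytes and smooth muscle, were among them. Of 15 endothelial markers 13 rose and 0 fell, with summed levels of 494 to 534 and 938 to 981 CPM, and no marker of either list was at 0 in all libraries. Flt1, a VEGF receptor, rose from 50.9 ± 3.36 to 214 ± 11.2 CPM (2.07, adjusted p = 8.09e-07). Of 10 border-associated macrophage markers 7 fell and 0 rose (1 rose without 5-week replicate 3 or 24-week replicate 3). Their summed levels were 2622 to 3003 CPM at 5 weeks and 1794 to 1888 at 24 weeks. Cbr2 (-1.45, adjusted p = 2.22e-05) and Pf4 (-1.50, adjusted p = 4.67e-05) were among those that fell. Of 14 choroid plexus markers 3 rose, Prlr (0.98, adjusted p = 0.00395) among them, and 1 fell, but 8 rose and 0 fell without 5-week replicate 2, the library highest in their sum. None fell, and 3 rose, without 24-week replicate 1 or 2. Of 11 astrocyte markers 1 rose and 5 fell, with Aldoc (-1.31, adjusted p = 0.00053) among the latter, and the number that fell ran from 2 without 24-week replicate 1 to 8 without 5-week replicate 3, with 3 without 5-week replicate 1, 5-week replicate 2 or 24-week replicate 3. Of 14 homeostatic microglia markers 1 rose (Sall1, 0.95, adjusted p = 0.00123) and 5 fell, or 3 without 24-week replicate 2. The part of any of these cells in the values of the 10 genes was not tested.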

How the data were processed

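According to the labels and methods, RNA was read as strand-specific read pairs, which the authors trimmed (trim_galore), mapped to GRCm38 (TopHat2 2.0.13) and assigned to Ensembl exons (HTSeq 0.6.1, reverse-strand setting, unique pairs only). The authors deposited raw counts, 1 table per library, and these were used as they stand. Summary rows without a gene were dropped. The largest, for reads outside exons, held 39.98% to 41.84% of uniquely placed pairs at 5 weeks and 48.69% to 54.92% at 24 weeks. The ages thus did not overlap in this share, and its part in the age differences was not tested.

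Symbols, positions and exon lengths came from GENCODE M21 on GRCm38 (37607 of 38924 identifiers matched). The authors had counted reads on gene models of another Ensembl release. Lengths and counts thus rest on different annotations, and the effect of this on levels per kilobase was not tested. Ages were compared with edgeR 4.0.16 (TMM, default low-count filter, quasi-likelihood F test, age as the only term). An SE is the log2 fold change over the square root of F. Each interval spans 1.96 SE either side, a normal approximation that is somewhat narrow with 3 libraries per age. The script was tested on simulated counts. DESeq2 1.42.0 and limma-voom (limma 3.58.1), other scalings and filters, removed length and GC trends, a replicate block and each library left out were the alternatives. The 10 genes, the 15 lists and the rule for named genes (all 10, up to 4 genes per list with the smallest p, and 5 by likeness) were chosen with earlier results of these data known, and the study also singled out matrix genes in its 5-week Het comparison, which used these WT libraries. The series design calls the 3 libraries of a group biological replicates. No pairing of mice across the ages is described, and none was assumed. The deviations of same-numbered libraries from their age means correlated at 0.0656, 0.0888 and -0.0451. Those of differently numbered libraries correlated at -0.131 to 0.0665. Such values cannot show by themselves whether mice were paired.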

Additional observations from a re-analysis of the deposited data

How the results depend on the processing

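The calls of Fn1, Prelp, Bgn and Col3a1 held under every alternative that tested them. The stricter filter, at least 50 counts in every library, left out Col3a1 by its construction, so 0 of the 10 genes fell under it. With 1 library left out, 3 to 4 genes rose and 1 to 2 fell. The fourth rise is Mgp without 24-week replicate 2 and the second fall is Lum without 5-week replicate 3; Lum was under the low-count filter without 5-week replicate 1 or 2. Of 134 values of the 10 genes under alternatives, 125 kept their direction and their side of the threshold, 2 newly passed and 7 changed sign, none of them in a gene that had passed. Those were Col1a1 with total counts only (0.01) and its leave-one-out range of -0.31 to 0.17 (0.03 without 5-week replicate 1), Col1a2 (-0.30 to 0.01), Dcn (-0.64 to 0.18, with 0.01 without 24-week replicate 1) and Igfbp2 (-0.32 to 0.07). The log2 difference of the Col1a1 to Col1a2 ratio ran from -0.19 to 0.18 (0.06 without 5-week replicate 3) with 1 library left out. With length and GC trends removed, 49 genes of the related lists fell, against 31, and calls over all genes were 2435 higher and 3337 lower (42.2% higher), against 2505 and 2141 (53.9% higher); with total counts only they were 3229 and 1466 (68.8% higher), with the median of all genes moved by 0.10. With the length of the longest transcript, 6 of the 10 genes kept their rank at 5 weeks and 6 at 24 weeks. With the age mean kept, 1 of the 5 most alike genes remained. The replicate block gave 3 rises and 1 fall among the 10 and 2424 and 1951 over all genes, and changed no call of the 10. Depth limits Lum, Col1a1 and Col3a1 most, with as few as 6, 22 and 20 counts in a 24-week library.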

Other observations

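Within an age, the 10 matrix genes did not vary as 1 block. As log2 CPM with the age mean removed, Col3a1 followed the mean of the 10 most closely over the 6 libraries (Pearson's r 0.914), then Col1a2 (0.854), Dcn (0.817) and Col1a1 (0.703), while Bgn (-0.0137), Prelp (0.197) and Mgp (0.255) followed it least. The mean of the 10 lay 0.23 above its age mean in 5-week replicate 2 and 0.21 below it in replicate 3. At 24 weeks replicate 3 was 0.13 above and replicate 2 was 0.20 below. Outside the set, 75 of 11351 genes ranked (0.661%) had r of at least 0.95. The highest were Gkap1 (r 0.998), Plekha3 (0.997), Cavin2 (0.995), Afdn (0.994) and Chd1 (0.993). With 6 libraries and the age means removed, some of so many genes reach such r with no relation to the matrix genes. The names therefore show no link to them. These values describe 6 libraries with the age means removed, and each gene is part of the same depth scaling, so they carry no test. The mean also contains each of the 10 genes, so a gene that varies widely partly sets its own r.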
